A study of Mus musculus with 16 samples.

Results

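The change in gene expression from stage HE1 to stage HE2 of the hemogenic endothelium was compared between Sp1+/+ and Sp1-/- mouse ES cells. The comparison uses 8 of the 16 arrays of the series, with 2 arrays for each of Sp1+/+ HE1, Sp1+/+ HE2, Sp1-/- HE1 and Sp1-/- HE2. Both genotypes are ES cell lines that the labels give as E14 with the strain C57BL/6. The Sp1-/- line carries a mutated Sp1 locus from which a shortened protein lacking the part that binds DNA is made, so each genotype is a single line and a difference between lines cannot be told apart from the mutation. All cells went through the same 2-step differentiation, from Flk1+ mesoderm cells into a blast culture, and carried no other treatment. HE1 cells were sorted as KIT+ CD41- Tie2+ and HE2 cells as KIT+ CD41+ Tie2+ from a pool of floating and adherent cells. The series also holds Flk1+ cells and KIT+ CD41+ Tie2- progenitors of both genotypes, 8 further arrays.

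Blood cells arise in the embryo from endothelial cells that lose their endothelial program and take up a hematopoietic one, a passage called the endothelial-to-hematopoietic transition. Within the hemogenic endothelium, surface CD41, an integrin of the megakaryocyte lineage, marks the cells that have begun it. Sp1 is a widely expressed zinc finger transcription factor that binds GC boxes, short GC-rich stretches found in many promoters.

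For each gene the step, HE2 minus HE1, was computed in each genotype on the log2 scale of normalized intensities, and the Sp1+/+ step was subtracted from the Sp1-/- step. This interaction is positive where the step of Sp1-/- cells was the higher one. All Sp1+/+ arrays lie on slide 1 and all Sp1-/- arrays on slide 2, and HE1 and HE2 sit at the same positions on both slides. A probe offset that is constant over a slide therefore cancels in the interaction, whereas an offset that differs by position from slide to slide cannot be told apart from it. A gene was called at an unadjusted limma p of 0.01 or less together with an interaction of at least 1 on the log2 scale, which is 2-fold.

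The 8 arrays had 67.0 to 75.9% of their spots well above background. The 2 arrays of a group correlated at r of 0.990 to 0.995, with Sp1-/- HE1 the least alike pair, and their median SD per gene was 0.09 to 0.13 on the log2 scale. The number of arrays limits the precision of each value. The deposited record calls the replicates independent and biological whereas a legend speaks of technical replicates, so each p covers only the spread between these samples, which may be technical.

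The targeted gene bore out the labels. Sp1 read 12.39 and 12.42 in Sp1+/+ HE1, 12.14 and 12.48 in Sp1+/+ HE2, 9.03 and 9.22 in Sp1-/- HE1, and 9.44 and 10.06 in Sp1-/- HE2. All 4 Sp1-/- arrays lay below all 4 Sp1+/+ arrays. The Sp1-/- minus Sp1+/+ difference was -3.28 in HE1 and, on the same log2 scale, -2.56 at the HE2 stage. The interaction of Sp1 was 0.72 ± 0.31 (SE) at an unadjusted limma p of 0.0544 and was not called. The 3 genes of the sort antigens changed in the same direction in both genotypes. Itga2b, which encodes CD41, rose by 1.48 in Sp1+/+ cells and by 1.35 in Sp1-/- cells. Kit, the receptor of stem cell factor, rose by 1.06 and 1.38. Tek, which encodes the endothelial receptor Tie2, fell by 1.44 and 1.07. Their interactions of -0.12, 0.31 and 0.36 were not called.

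Of 36974 genes tested, 227 were called (0.614%), 144 with the higher step in Sp1-/- cells (0.389%) and 83 with the lower one (0.224%). Ccl3, Cx3cr1, Fcgr3, Lcp1 and Mmrn1 were among those with the higher step. Cdh2, Mfap2, Bmper and Klhl36 were among those with the lower one. With Benjamini-Hochberg adjustment over all genes, 0 genes reached 0.05 in limma. The lowest adjusted p was 0.0876, for Ccdc88b, and the called genes reached up to 0.729. An unadjusted p of 0.05 or less was reached by 2104 genes and one of 0.01 or less by 506, where 1% of the genes tested would be 370, so single calls are not firm. A limma model of all 16 arrays gives the same interactions, and its estimate of the spread rests on all 8 groups. In it 36 genes (0.0974%) passed an adjusted p of 0.05 and 2-fold, and all 36 were among the 227, an overlap that is no further evidence. They include Ambp, Fcgr3, Lcp1, Mfap2, Pirt, Ccdc88b, Adgrg5, Klhl36, Mmrn1, Serpina3n, Trh and Srgn. Without Sp1-/- HE1 replicate 1 the count rose to 810, of which 531 had the lower step, and without Sp1+/+ HE2 replicate 1 it was 345, of which 214 had the lower step. All 227 genes kept their sign in each of the 8 fits that left out 1 array, though most lost the call in at least 1. Genes called for a large interaction with a small spread could hardly turn sign there, so the kept sign is no further evidence.

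**Figure D1:**
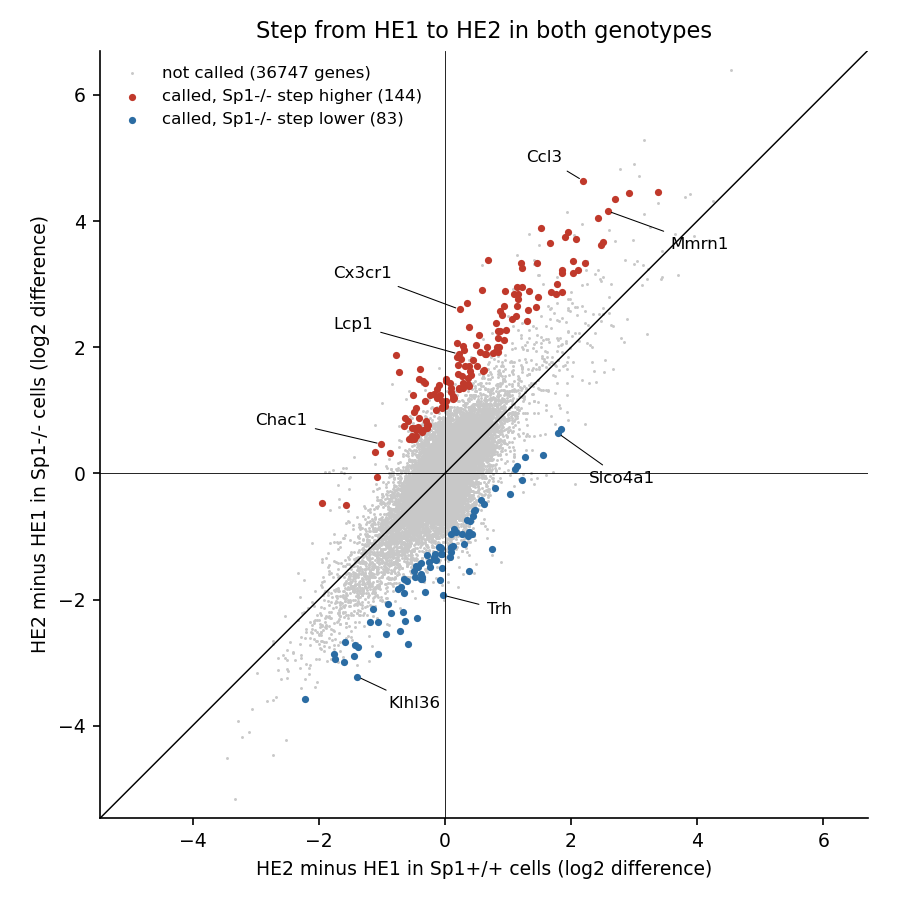
Each point is a gene, placed by its HE2 minus HE1 difference in Sp1+/+ cells (x axis) and in Sp1-/- cells (y axis), both in log2 units, with the diagonal marking equal steps. The 144 genes called with the higher Sp1-/- step (red) and the 83 called with the lower one (blue) lie along both sides of the diagonal, mostly further from 0 in Sp1-/- than in Sp1+/+ cells.

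Most of the called genes moved in Sp1-/- cells. In 209 of the 227 the step of Sp1-/- cells was the larger in size. Of the 144 genes with the higher step, 79 rose in Sp1-/- cells alone, 39 rose in both genotypes, 5 fell in Sp1+/+ cells alone and 21 passed the test in neither. Of the 83 genes with the lower step, 46 fell in Sp1-/- cells alone, 13 fell in both, 8 rose in Sp1+/+ cells alone and 16 passed in neither. Among all genes, 2.04% rose and 3.29% fell in Sp1-/- cells, against 1.04% and 2.08% in Sp1+/+ cells. These steps use the same arrays as the interaction, so the classes describe the calls and are no further evidence for them. No gene rose in one genotype and fell in the other with both steps called.

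The genotypes were also compared within each stage. Of the 144 genes with the higher step, 92 were higher in Sp1-/- than in Sp1+/+ cells in HE2 alone, 15 were lower in HE1 alone, 3 differed in both stages and 34 in neither. Of the 83 genes with the lower step, 35 were higher in Sp1-/- cells in HE1 alone, 14 were lower in HE2 alone, 1 differed in both and 33 in neither. Over all genes, Sp1-/- HE1 was called higher in 0.768% and lower in 1.06%, and Sp1-/- HE2 higher in 0.725% and lower in 1.1%.

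Myeloid and pan-leukocyte genes, a list of 62 genes that mark granulocytes, macrophages and white blood cells in general, held the most calls of the 21 lists examined. Of its 60 genes tested, 12 were called with the higher step (20%, against 0.389% of all genes) and 0 with the lower one. Here and for the other lists, the share of all genes takes in genes without a symbol, which were called less often. Of 20032 genes with a symbol 180 were called in either direction, and of 16942 without one 47. The median interaction of the list was 0.36, against 0 for all genes tested, and 40 of the 60 lay above 0. From HE1 to HE2, 22 members rose in Sp1+/+ cells and 33 in Sp1-/- cells, against 1.04% and 2.04% of all genes. The list was written with earlier results of these arrays known. The mean log2 intensity of the list ran from 8.40 to 8.67 on the Sp1+/+ HE1 arrays and from 8.58 to 8.67 on the Sp1-/- HE1 arrays. It was 9.38 to 9.48 in Sp1+/+ HE2 and 9.97 to 10.12 in Sp1-/- HE2, so that the HE2 groups did not overlap while the HE1 groups did. In sorted bulk samples, more cells of a type and more RNA of those genes per cell cannot be told apart, and the part of mature cells within the gate was not tested. The number of calls in the list was 6 without Sp1-/- HE2 replicate 2 and 10 to 13 without any 1 of the other 7 arrays.

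Of the called members, 10 have a listed promoter, and genes on a chromosome that was set aside were not shown. Among the rest, the 3 with the lowest p are shown by the 250 bases before their first listed start (RefSeq, GRCm38.p6, 5′ to 3′ along the gene). Binding of Sp1 to these windows was not tested. Capitals mark GGGCGG, the GC box, and GAGGAA, a purine-rich form of the motif that ETS factors recognize, on either strand. Other forms of that motif were not counted. The genes shown are Lcp1 (chr14:75130873-75131122, plus strand), Fcgr3 (chr1:171059404-171059653, minus strand) and Cx3cr1 (chr9:120068297-120068546, minus strand).
Lcp1: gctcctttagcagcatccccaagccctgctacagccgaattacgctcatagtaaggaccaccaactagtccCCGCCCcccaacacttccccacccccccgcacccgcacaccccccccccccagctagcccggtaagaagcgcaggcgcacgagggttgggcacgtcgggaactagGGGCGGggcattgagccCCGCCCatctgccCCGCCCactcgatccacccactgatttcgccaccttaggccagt
Fcgr3: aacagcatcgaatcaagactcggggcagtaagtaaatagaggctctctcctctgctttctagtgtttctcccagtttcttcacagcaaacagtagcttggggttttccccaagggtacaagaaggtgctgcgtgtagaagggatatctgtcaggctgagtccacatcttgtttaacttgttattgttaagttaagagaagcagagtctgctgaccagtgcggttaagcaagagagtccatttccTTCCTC
Cx3cr1: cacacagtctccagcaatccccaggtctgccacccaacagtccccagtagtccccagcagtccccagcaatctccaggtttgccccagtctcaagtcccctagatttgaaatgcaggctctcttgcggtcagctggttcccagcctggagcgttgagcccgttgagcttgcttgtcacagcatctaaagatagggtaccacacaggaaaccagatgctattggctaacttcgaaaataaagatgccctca
The Lcp1 window holds 4 GC boxes and 0 copies of GAGGAA, the Fcgr3 window 0 and 1, and the Cx3cr1 window 0 of either.

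Lcp1 encodes L-plastin, an actin-bundling protein of leukocytes. It read 9.69 and 9.81 in Sp1+/+ HE1, 9.89 and 10.06 in Sp1+/+ HE2, 9.94 and 9.85 in Sp1-/- HE1, and 11.72 and 11.85 in Sp1-/- HE2. The Sp1-/- HE2 arrays thus stood alone, with the other 6 within a narrow range below them. The step was 0.22 in Sp1+/+ cells and 1.89 in Sp1-/- cells, an interaction of 1.67 ± 0.16 (SE) with an adjusted p of 0.220.

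Cx3cr1, the fractalkine receptor of monocytes and macrophages, showed the same order. Its values were 6.71 and 6.77 in Sp1+/+ HE1, 6.98 and 6.97 in Sp1+/+ HE2, 6.82 and 6.24 in Sp1-/- HE1, and 9.21 and 9.06 in Sp1-/- HE2. Only the Sp1-/- HE2 arrays were above 7, and the interaction was 2.37 ± 0.26 (SE).

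Fcgr3, a receptor for the constant part of immunoglobulin G, rose in both genotypes. It read 6.48 and 6.39 in Sp1+/+ HE1 and 7.54 and 7.52 in Sp1+/+ HE2, a step of 1.09. The Sp1-/- arrays read 6.69 and 6.61 for HE1, then 9.33 and 9.66 for HE2, a step of 2.85. The 2 HE1 groups were within 0.22 of each other on average, and the genotypes were apart by 1.97 in HE2. The HE1 values were dim, as the lowest signal of probes well above background was 5.99 to 6.25 on the HE1 arrays.

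The other called members kept that form with HE1 close together and HE2 apart. Cd14, the co-receptor for bacterial lipopolysaccharide, had an interaction of 1.66, and Ptprc, which encodes the leukocyte antigen CD45, had 1.65. In both genes the step of Sp1+/+ cells did not pass the test. Srgn, the proteoglycan of secretory granules, had an interaction of 1.26 and rose in both genotypes. These 6 genes were called in each fit that left out 1 array. Ncf4, a subunit of the phagocyte NADPH oxidase, had 1.72, Fcer1g, the signaling chain of several Fc receptors, had 1.63, and Vav1, an exchange factor downstream of antigen receptors, had 1.17. Coro1a, an actin regulator of leukocytes, had 1.12, Irf8, a transcription factor of the monocyte lineage, had 1.12, and Prtn3, a serine protease of neutrophil granules, had 1.01. These 6 were called with all 8 arrays but lost the call in 3 to 6 of the 8 fits that left out 1 array, and each of the 6 lost it in the fit without Sp1-/- HE2 replicate 2.

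**Figure D2:**
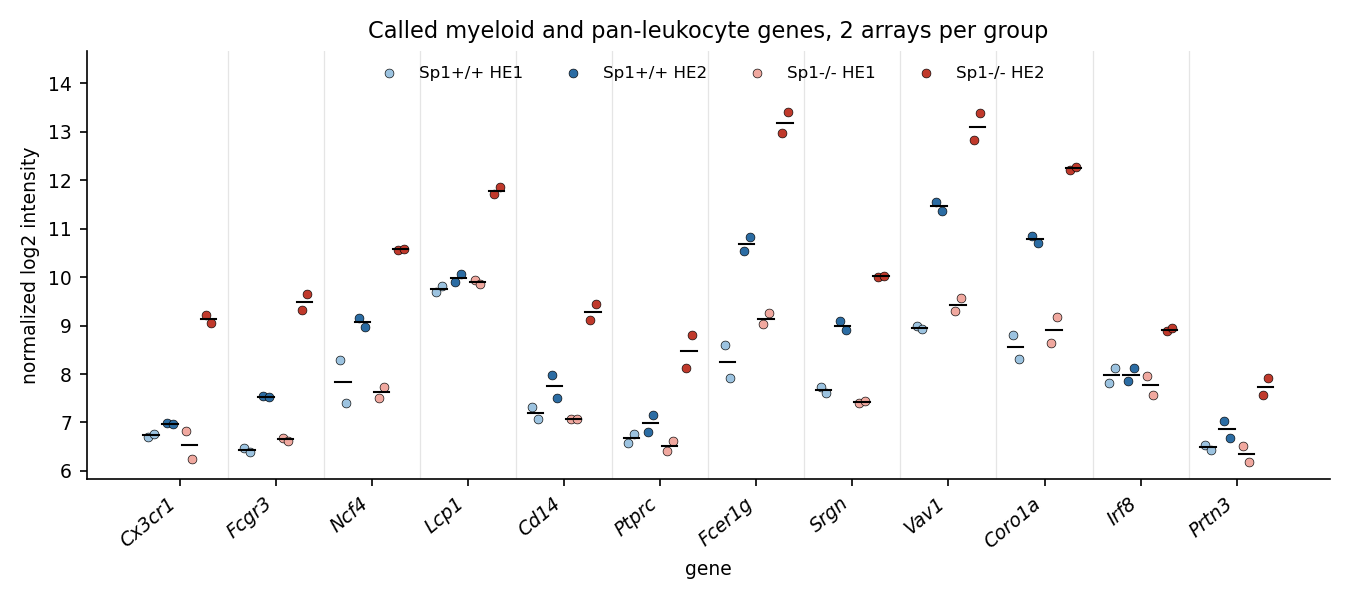
Points give the normalized log2 intensity of each array for the 12 called myeloid and pan-leukocyte genes, ordered by interaction, and the bars give the mean of the 2 arrays in each group. In every gene shown the 2 Sp1-/- HE2 arrays (dark red) lie above the other 6.

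Genes with the largest positive interactions over all named genes did not all have HE1 close together. Add2, given below with the erythroid genes, read lower in Sp1-/- than in Sp1+/+ HE1. Ccl3, a chemokine of macrophages, read 6.89 and 6.02 in Sp1+/+ HE1 and 8.50 and 8.79 in Sp1+/+ HE2. In Sp1-/- cells it was not well above background on either HE1 array and read 10.82 and 10.58 in HE2, so that the step was at least 25.0-fold. The interaction was 2.46 ± 0.39 (SE, adjusted p = 0.333). Adgrg5, an adhesion G protein-coupled receptor, and Ambp, the precursor of a plasma protease inhibitor, were likewise not well above background on either Sp1-/- HE1 array. Their Sp1-/- steps were at least 14.8-fold and 7.52-fold, and their fitted interactions 2.38 and 2.32. Of the 144 genes, 22 had an HE1 group with no array well above background, which makes their fitted interactions less exact than those of brighter genes.

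Ccdc88b, a Hook-related protein of immune cells, had the lowest p of all genes. It read 6.38 and 6.34 in Sp1+/+ HE1, 7.63 and 7.53 in Sp1+/+ HE2, 6.35 and 6.28 in Sp1-/- HE1, and 9.53 and 9.62 in Sp1-/- HE2. HE1 was alike in both genotypes, while HE2 differed by 2.00, and the interaction of 2.04 ± 0.14 (SE) had an adjusted p of 0.0876. The HE1 values lay close to the lowest signal of probes well above background, 5.99 to 6.25 on the HE1 arrays. At that level likeness and a small spread cannot be told apart from the limit of measurement. Mamdc2, a secreted protein with MAM domains, had 2.13, Nfam1, a signaling receptor of B cells and monocytes, had 1.94, and Myo1f, an unconventional myosin of leukocytes, had 1.99. Acp5, the tartrate-resistant acid phosphatase of osteoclasts and macrophages, had the largest value, 2.69 ± 0.63 (SE), yet it lost the call in 5 of the 8 fits that left out 1 array. Rph3a, an effector of vesicle transport with 2.06, lost it in 6, the olfactory receptor gene Olfr94 with 2.64 in 4, and Myo1f in 1.

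Genes of megakaryocytes and platelets, the lineage CD41 belongs to, had 5 calls with the higher step among 49 tested (10.2%, against 0.389%) and 0 with the lower one, at a median interaction of 0.20. In Sp1+/+ cells 25 members rose and in Sp1-/- cells 30, against 1.04% and 2.04% of all genes. Mmrn1, the platelet protein multimerin 1, which also stands on the endothelial list, read 6.25 and 6.09 in Sp1+/+ HE1 and 8.89 and 8.61 in Sp1+/+ HE2. It read 6.35 and 6.32 in Sp1-/- HE1 and 10.55 and 10.43 in Sp1-/- HE2. It rose in both genotypes, by 2.58 and 4.16, and the interaction was 1.57 ± 0.18 (SE). The HE1 values were dim, and 6.09 lay below 6.25, the lowest signal of probes well above background on that array. Rgs18, a regulator of G protein signaling in platelets, had an interaction of 1.64 and an Sp1-/- step of at least 13.2-fold. Tubb1, the tubulin of the platelet marginal band, had 1.37, Tbxas1, thromboxane synthase, had 1.26, and Gp5, a subunit of the receptor for von Willebrand factor, had 1.15. The last 3 rose in Sp1-/- cells and did not pass the test in Sp1+/+ cells. Gp5 lost the call without Sp1-/- HE2 replicate 2, where its interaction was 0.97, and the other 4 kept it in each fit. The mean of the list was 10.50 to 10.53 in Sp1+/+ HE2 and 10.70 to 10.78 in Sp1-/- HE2.

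Erythroid genes had the highest median of the lists, 0.55, with 43 of 50 above 0. From HE1 to HE2, 4 members rose in Sp1+/+ cells and 21 in Sp1-/- cells, a difference in counts that was not tested itself. Of all genes, 1.04% rose in Sp1+/+ cells and 2.04% in Sp1-/- cells. For the interaction, 3 of the 50 were called (6%, against 0.389%), all with the higher step. The count was 9 without Sp1+/+ HE1 replicate 2, 5 without Sp1+/+ HE2 replicate 1, 3 without Sp1-/- HE1 replicate 1 and 1 without any 1 of the other 5 arrays. Add2, a subunit of the red cell membrane skeleton, read 7.33 and 7.52 in Sp1+/+ HE1, 6.90 and 7.13 in Sp1+/+ HE2, 6.70 and 6.88 in Sp1-/- HE1, and 8.42 and 8.15 in Sp1-/- HE2. It rose in Sp1-/- cells alone, and its interaction was 1.91 ± 0.21 (SE). Epor, the erythropoietin receptor, with 1.20, and Trim10, a RING finger protein of red cell precursors, with 1.65, lost the call in 7 and 6 of the 8 fits that left out 1 array. Klf1, the erythroid Krüppel-like factor, had a step of 1.14 in Sp1+/+ cells and 3.47 in Sp1-/- cells, but its interaction of 2.33 had a p of 0.0320 and was not called. The embryonic globin genes varied so much between the arrays of a group that an interaction of 1.66 for Hbb-y had a p of 0.373. The erythroid mean was 9.18 to 10.06 in Sp1+/+ HE1, a wider range than in any other group, and the median interaction was 0.26 without Sp1+/+ HE1 replicate 1 and 0.70 without Sp1-/- HE1 replicate 1.

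Among 34 transcription factors of blood formation, 1 was called with the higher step (2.94%, against 0.389%), Irf8, and the median was 0.19. The count was 3 without Sp1+/+ HE1 replicate 2 and 0 without replicate 2 of Sp1-/- HE1 or of Sp1-/- HE2. Spi1, which encodes PU.1 and directs myeloid genes, rose in both genotypes, by 1.77 and 2.70, and its interaction of 0.93, at an unadjusted limma p of 0.00681, fell short of the 2-fold threshold. Runx1, which the endothelial-to-hematopoietic transition requires, rose by 3.19 in Sp1+/+ cells and 2.21 in Sp1-/- cells, with an interaction of -0.98 at an unadjusted limma p of 0.0898. Gfi1b, a repressor of the endothelial program, rose by 3.44 and 3.12. Of 35 cytokine receptors, 2 were called with the higher step (5.71%, against 0.389%), Epor and Il6ra, the receptor subunit of interleukin 6. That count was 0 to 2 when 1 array was left out, with 0 in 5 of the 8 fits. Il6ra had 1.22 and lost the call in 7 of the 8 fits that left out 1 array.

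The 51 genes of DNA replication and mitosis had 0 calls, yet 44 of them lay above 0, at a median of 0.28. Their median step was 0.34 in Sp1+/+ and 0.66 in Sp1-/- cells. Of these genes, 16 had an interaction above 0 and 1 an interaction below 0 at an unadjusted p of 0.05 or less, against 3.07% and 2.62% of all genes. The former include Ttk, a kinase of the spindle checkpoint, with 0.77, and Mki67, the proliferation marker Ki-67, with 0.46. The mean of the list was 12.61 to 12.67 in Sp1+/+ HE1 and 12.32 to 12.43 in Sp1-/- HE1, and it was 12.99 to 13.04 and 13.02 to 13.04 in HE2. The Sp1-/- arrays thus lay lower in HE1 and overlapped those of Sp1+/+ cells in HE2. Leaving out 1 array moved the median between 0.24 and 0.33.

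Of 49 endothelial genes tested, 26 fell in Sp1+/+ cells and 28 in Sp1-/- cells, with a median step of -1.25 and -1.43, and only Mmrn1 was called for the interaction. Of all genes, 2.08% fell in Sp1+/+ cells and 3.29% in Sp1-/- cells. The median interaction of -0.22 rests on the Sp1+/+ HE2 arrays, whose list means were 10.76 and 11.65, the widest gap of the 4 groups. It was -0.61 without Sp1+/+ HE2 replicate 1, where 9 members were called with the lower step, and 0.25 without replicate 2. Cdh5, the cadherin of endothelial junctions, fell by 1.28 and 1.59 and had an interaction of -0.32 at an unadjusted limma p of 0.480.

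**Figure D3:**
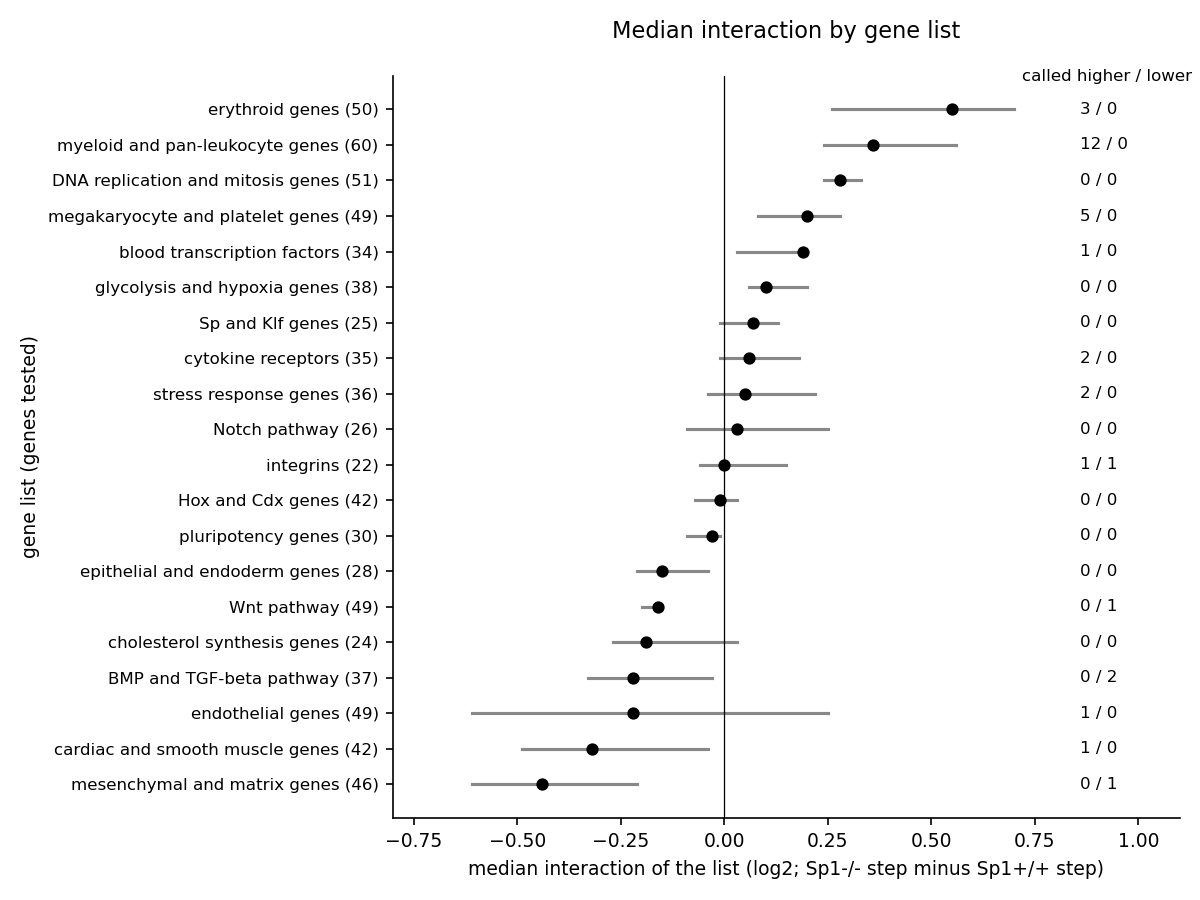
For each gene list, with the number of genes tested in brackets, the point gives the median interaction in log2 units and the line its range over the 8 fits that left out 1 array. The numbers at the right are the members called with the higher and the lower step, with 12 and 0 for the myeloid and pan-leukocyte genes, whose median of 0.36 lies above that of all genes, 0.

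Genes with the lower step in Sp1-/- cells are given first where Sp1-/- stood above Sp1+/+ in HE1, then where it stood below in HE2, and 33 of the 83 did neither by the test. For comparison with the leukocyte genes, windows before the start of 3 genes of this direction are shown with the same capitals. They have the lowest p among genes with a symbol and a listed promoter, with the same chromosome set aside. They are Trh (chr6:92244651-92244900, minus strand), Cdkn2a (chr4:89294620-89294869, minus strand) and Mfap2 (chr4:141010431-141010680, plus strand).
Trh: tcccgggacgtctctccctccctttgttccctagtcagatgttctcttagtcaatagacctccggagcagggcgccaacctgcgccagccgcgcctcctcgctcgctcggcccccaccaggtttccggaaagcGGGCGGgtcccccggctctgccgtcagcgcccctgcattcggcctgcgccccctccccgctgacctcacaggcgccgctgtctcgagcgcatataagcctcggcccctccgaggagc
Cdkn2a: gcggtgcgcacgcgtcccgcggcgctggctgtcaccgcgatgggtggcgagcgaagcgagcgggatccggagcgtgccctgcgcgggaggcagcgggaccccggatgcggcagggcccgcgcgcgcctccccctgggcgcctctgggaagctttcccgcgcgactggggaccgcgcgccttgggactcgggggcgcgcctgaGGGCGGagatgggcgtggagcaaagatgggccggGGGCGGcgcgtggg
Mfap2: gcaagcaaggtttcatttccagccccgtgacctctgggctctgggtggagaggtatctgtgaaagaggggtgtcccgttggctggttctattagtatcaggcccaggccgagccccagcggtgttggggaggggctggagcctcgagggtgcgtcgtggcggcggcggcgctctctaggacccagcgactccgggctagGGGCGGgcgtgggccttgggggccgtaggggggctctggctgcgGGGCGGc
These windows hold 1, 2 and 2 GC boxes and no GAGGAA. A GC box stood before at least 1 listed start in 27 of the 39 genes with the lower step that have a listed promoter (69.2%). The same held for 46 of the 98 with the higher step (46.9%) and for 49.3% of all 15892 genes tested that have one. Genes with several listed starts had more windows in this count. GAGGAA stood in such a window in 17.9%, 38.8% and 25.6% of these genes. These are counts of letters in a window and were not tested.

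Mfap2, a protein of elastic microfibrils, read 9.02 and 8.76 in Sp1+/+ HE1, 8.26 and 8.20 in Sp1+/+ HE2, 11.11 and 10.90 in Sp1-/- HE1, and 8.74 and 8.89 in Sp1-/- HE2. The Sp1-/- HE1 arrays stood above the others, by 2.12 over Sp1+/+ HE1, and Sp1-/- cells fell by 2.19 to within 0.59 of Sp1+/+ in HE2. The interaction was -1.53 ± 0.19 (SE, adjusted p = 0.220). Trh, the precursor of thyrotropin-releasing hormone, read 8.12 and 8.08 in Sp1+/+ HE1 and 7.97 and 8.17 in Sp1+/+ HE2, where it hardly moved. It read 10.87 and 10.64 in Sp1-/- HE1 and 8.94 and 8.71 in Sp1-/- HE2, where it fell by 1.93, and the interaction was -1.90 ± 0.19 (SE). Pirt, a membrane protein known from sensory neurons, had -1.42 and reached 7.59 and 7.82 in Sp1-/- HE1 alone. Insm1, a neuroendocrine transcription factor, had -1.59, and Serpina3n, a serine protease inhibitor, had -1.57. All 5 were higher in Sp1-/- HE1 than in Sp1+/+ HE1 and kept the call in each fit that left out 1 array. Spink1, a trypsin inhibitor with -1.79, Galnt14, an enzyme of mucin-type glycosylation with -1.72, and Rmrp, the RNA of the ribonuclease MRP with -1.92, were also higher in Sp1-/- HE1. They lost the call in 2, 5 and 4 of those fits.

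Klhl36, an adaptor of ubiquitin ligases, was alike in HE1 and parted in HE2. It read 11.20 and 11.18 in Sp1+/+ HE1, 11.29 and 11.63 in Sp1-/- HE1, 9.55 and 10.05 in Sp1+/+ HE2, and 8.21 and 8.26 in Sp1-/- HE2. It fell in both genotypes, by 1.39 and 3.22, with an interaction of -1.83 ± 0.27 (SE). Bmper, an endothelial regulator of BMP signaling, had an interaction of -1.79 and a Sp1-/- minus Sp1+/+ difference of -1.93 in HE2. Bace2, an aspartyl protease with -1.39, lost the call in 7 fits. Olfr611, an olfactory receptor gene with -1.95, had a difference of -1.15 there.

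**Figure D4:**
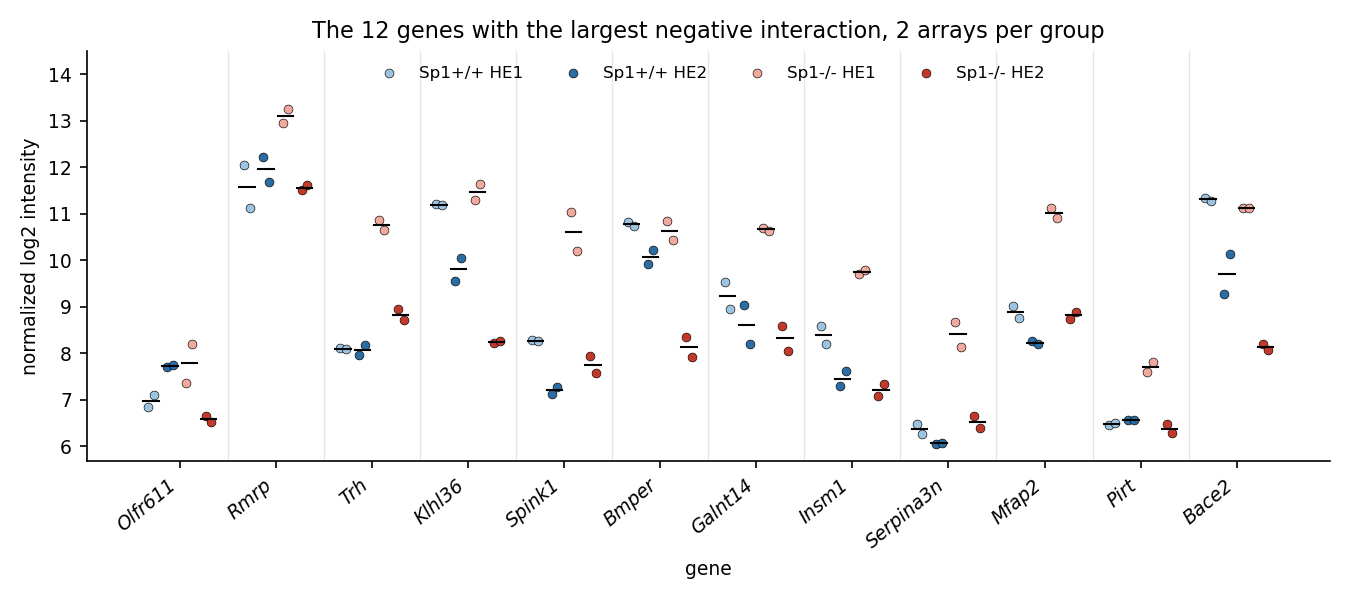
Points give the normalized log2 intensity of each array for the 12 genes with the largest negative interaction, and the bars give the mean of the 2 arrays in each group. In Trh, Spink1, Insm1, Mfap2 and Pirt the Sp1-/- HE1 arrays (light red) lie above the other 6, and in Klhl36, Bmper and Bace2 the Sp1-/- HE2 arrays (dark red) lie below the other 6.

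Lists of non-blood lineages had medians below 0. Of 46 mesenchymal and matrix genes tested, 35 lay below 0 and the median was -0.44, with 1 called (2.17%, against 0.224%). Leaving out 1 array moved the median from -0.61 without Sp1-/- HE1 replicate 2, where 4 members were called lower, to -0.21 without Sp1+/+ HE2 replicate 2. The median was -0.25 without Sp1-/- HE1 replicate 1, and 0 members were called without Sp1-/- HE2 replicate 2. The count was 2 without replicate 1 of Sp1+/+ HE2, Sp1-/- HE1 or Sp1-/- HE2. In Sp1+/+ cells 14 members fell and in Sp1-/- cells 23, against 2.08% and 3.29% of all genes. The called gene, Cdh2, which encodes N-cadherin, read 13.02 and 13.54 in Sp1+/+ HE1, 11.72 and 12.01 in Sp1+/+ HE2, 14.23 and 14.39 in Sp1-/- HE1, and 11.65 and 11.53 in Sp1-/- HE2. It was higher in Sp1-/- HE1 and fell to the level of Sp1+/+ in HE2, with an interaction of -1.31 ± 0.27 (SE) that lost the call without Sp1-/- HE2 replicate 2, at -1.05. Lum, the matrix proteoglycan lumican, had -1.66 and Col3a1, a fibrillar collagen, had -1.59, neither of them called. The list mean was 10.17 to 10.50 on the Sp1+/+ HE1 arrays and 10.25 to 10.70 on the Sp1-/- HE1 arrays. At the HE2 stage it was 9.45 to 9.57 in Sp1+/+ and 9.02 to 9.29 in Sp1-/- cells. The groups overlapped in HE1 and did not in HE2, and the part of non-endothelial cells within the gate was not tested. Of 37 BMP and TGF-beta pathway genes, 2 were called with the lower step (5.41%, against 0.224%), Bmper and Fst, the activin antagonist follistatin, with -1.30, and 1 to 3 were when 1 array was left out. Of 49 Wnt pathway genes, Fzd10, a Wnt receptor, was called with -1.02 (2.04%, against 0.224%), and the count was 0 to 3, the highest without Sp1-/- HE1 replicate 1. Fst and Fzd10 lost the call in 6 and 3 of the fits that left out 1 array.

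Among 42 cardiac and smooth muscle genes, at a median of -0.32, the 1 call was of a higher step (2.38%, against 0.389%). Mef2c, a transcription factor of heart muscle that blood cells also use, had 1.25 and lost the call in 4 fits that left out 1 array. Of 22 integrins, at a median of 0, 1 was called with the higher step (4.55%, against 0.389%) and 1 with the lower one (4.55%, against 0.224%). Itgb7, a subunit of lymphocyte homing receptors, had 1.14, and Itga7, a laminin receptor of muscle, had -1.01. They lost the call in 1 and 6 fits. Of 36 stress response genes, 2 were called with the higher step (5.56%, against 0.389%). Chac1, an enzyme that degrades glutathione, read 8.66 and 9.01 in Sp1+/+ HE1, 7.71 and 7.93 in Sp1+/+ HE2, 10.10 and 10.08 in Sp1-/- HE1, and 10.34 and 10.77 in Sp1-/- HE2. It was higher in Sp1-/- cells at both stages. It fell by 1.01 in Sp1+/+ cells, the Sp1-/- step of 0.47 did not pass the test, and the interaction was 1.48. Trib3, a pseudokinase induced by the same stress pathway, had 1.38 and rose in Sp1-/- cells alone. Notch pathway genes (26 tested), Hox and Cdx genes (42), Sp and Klf genes (25), pluripotency genes (30), glycolysis and hypoxia genes (38), epithelial and endoderm genes (28) and cholesterol synthesis genes (24) had 0 calls at medians of 0.03, -0.01, 0.07, -0.03, 0.10, -0.15 and -0.19. At an unadjusted p of 0.05 or less these lists held between 0 and 3 genes in either direction.

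In 13 called genes only the step of Sp1+/+ cells passed the test, and those named here were chosen after their values were seen. Cdkn2a, which encodes the cell cycle inhibitors of the Ink4a and Arf locus, read 11.23 and 11.02 in Sp1+/+ HE1, 12.08 and 12.24 in Sp1+/+ HE2, 11.65 and 11.69 in Sp1-/- HE1, and 11.39 and 11.29 in Sp1-/- HE2. It rose by 1.03 in Sp1+/+ cells and not in Sp1-/- cells, with an interaction of -1.36 ± 0.17 (SE). Slco4a1, an organic anion transporter, rose by 1.79 in Sp1+/+ cells, against a step of 0.64 in Sp1-/- cells, and had an interaction of -1.15. Its HE2 means were 13.27 in Sp1+/+ and 13.29 in Sp1-/- cells. Art4, an enzyme that carries a blood group antigen, rose by 1.56 in Sp1+/+ cells and had -1.27, with HE2 means of 12.62 and 12.63. Epha7, an ephrin receptor, rose by 1.84 in Sp1+/+ cells and had -1.15, and it lost the call in 5 of the 8 fits that left out 1 array. In these last 3 genes Sp1-/- HE1 was higher than Sp1+/+ HE1, by 1.18, 1.29 and 1.78. Fgd2, an exchange factor for Cdc42, fell by 1.10 in Sp1+/+ cells and had a Sp1-/- minus Sp1+/+ difference of -1.82 in HE1, with an interaction of 1.44.

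The Flk1+ cells and progenitors, on arrays that the interaction did not use, show these genes in populations placed before and after the 2 stages in differentiation. Their calls come from the fit of the whole series, so the spread behind each call rests partly on the HE1 and HE2 arrays. The called genes were chosen partly for a small spread on those arrays. This can raise their share of calls above that of all genes, by an amount that was not tested. The differences themselves use only the arrays of the population compared. In progenitors, 56 of the 144 genes with the higher step were called higher in Sp1-/- cells and 0 lower, against 1.49% and 2.62% of all genes. The genotype difference was above 0 in 111 of them, at a median of 0.75, against 0.02 for all genes. In Flk1+ cells 5 were called higher and 7 lower, against 0.776% and 0.871% of all genes. Of the 83 genes with the lower step, 19 were called lower and 1 higher in Sp1-/- progenitors, at a median of -0.36, and 7 were called higher and 2 lower in Sp1-/- Flk1+ cells. Progenitor and HE2 arrays of one genotype lie on one slide, so that a slide offset in HE2 can recur in progenitors. The authors sorted progenitors on the same day of blast culture as HE1 and HE2. Progenitors were thus not taken later, and they may share cultures with HE2, so their differences are not independent of those in HE2.

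Cx3cr1 stood 2.40 higher in Sp1-/- than in Sp1+/+ progenitors, Fcgr3 1.05 higher, Lcp1 0.99 higher and Add2 3.80 higher. Mamdc2, with a difference of 0.33, and Il6ra, with -0.17, did not pass there. Trh (-0.41), Insm1 (-0.40) and Pirt (0.13), which had been higher in Sp1-/- HE1, were not called in progenitors, whereas Klhl36, at -1.81, and Bmper, at -1.87, were lower.

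**Figure D5:**
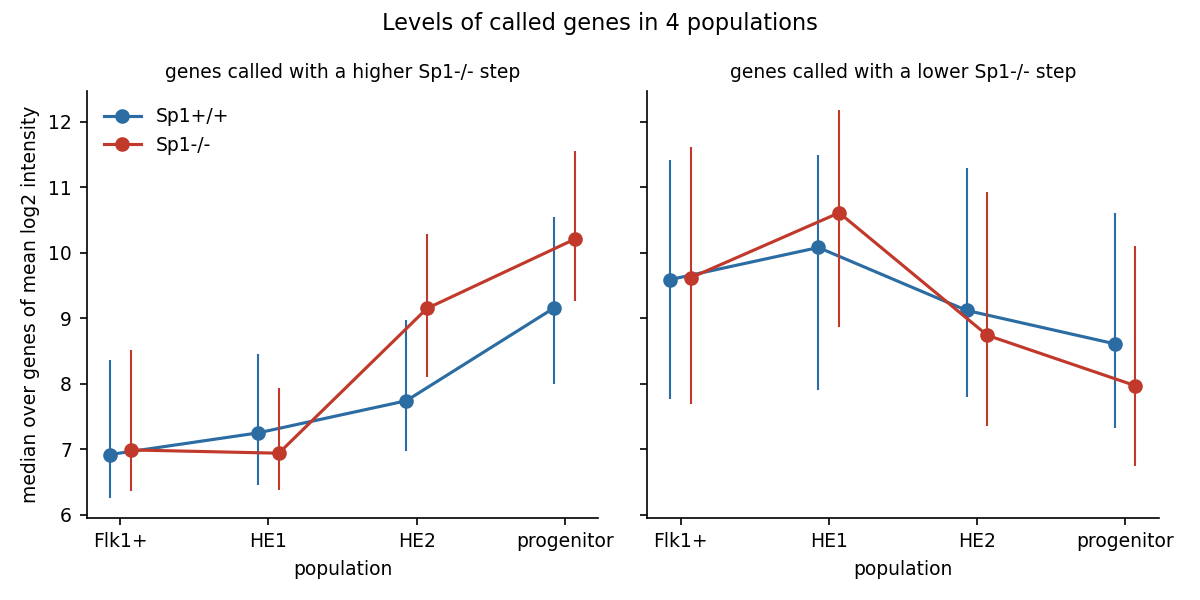
Points give the median over the called genes of the group mean log2 intensity in Flk1+ cells, HE1, HE2 and progenitors, for Sp1+/+ (blue) and Sp1-/- (red), and the vertical lines span the middle of the genes, from the lower to the upper quartile. Genes with the higher step (left) went from 7.25 through 7.74 to 9.16 between HE1 and progenitors of Sp1+/+ cells and from 6.94 through 9.15 to 10.21 in Sp1-/- cells, and genes with the lower step (right) went from 10.08 through 9.12 to 8.61 and from 10.61 through 8.74 to 7.97.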

How the data were processed

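RNA of the 8 HE1 and HE2 samples had been hybridized to one-color Agilent arrays. Per the labels, scans were read with Agilent Feature Extraction 10.7.1.1 and normalized with limma. The authors deposited normalized log2 values of all 16 arrays, and the scanner intensity of each spot. The deposited log2 values were matched by normexp background correction at an offset of 50 and quantile normalization to within 0.0258, whereas the stated offset of 16 differed by up to 1.63. An offset of 50 draws dim spots together. Control spots were left out, outlier spots set to missing and spots of a probe averaged. Probes had to reach a log2 of 6 on 1 of the 8 arrays, and the brightest probe stood for a gene. Symbols came from RefSeq (GRCm38.p6) and 20032 of 36974 genes tested have one.

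The interaction was fitted with limma 3.58.1 in R 4.3.3 over 8 arrays in 4 groups, with 4 residual degrees of freedom and moderated variances. Progenitors and Flk1+ cells were read from a model of 16 arrays. The fit was tested on simulated data. A step from a group with neither array well above background is given as a bound, against the lowest signal of probes that are. Of 93 further probes of 67 called genes, 74 had the sign of the probe used.

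Genes named are Sp1, the sort antigens, the 12 called genes with a symbol and the largest interaction in each direction, bright in a group and with no overlap of steps between arrays, and the called members of 21 lists. Other members are named as examples with their values. Members and lists were chosen with earlier results of these data known. Replicate numbers equal the row of the array on its slide, and the titles do not say what else they share. They were not taken as pairs in the main fit. Deviations of same-numbered HE1 and HE2 arrays correlated at 0.50 in Sp1+/+ and 0.06 in Sp1-/- cells, and those across genotypes at -0.17 to 0.28. Whether same-numbered HE1 and HE2 samples came from a shared culture was not tested. Alternatives changed the values, filter, probe, arrays, block, threshold and test, and left out each array in turn.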

Additional observations from a re-analysis of the deposited data

Results flagged for a closer look

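The step from HE1 to HE2 differed between Sp1+/+ and Sp1-/- cells in 227 genes by a limma test of the difference itself, 144 with the higher and 83 with the lower step in Sp1-/- cells. The gene with the lowest adjusted p, 0.0876, was Ccdc88b, with steps of 1.22 in Sp1+/+ and 3.26 in Sp1-/- cells. No gene passed an adjusted p of 0.05 on the 8 arrays. With 2 arrays in each group, single arrays could not be tested as outliers.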

How the results depend on the processing

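The count of called genes, 227 with 8 arrays, was 192 to 316 with all 16 arrays in the fit, an offset of 16, no filter on intensity, a filter on spots well above background, the mean over probes, a choice of probes over 16 arrays or a replicate block. The processed signal scaled to the 75th percentile gave 223, but only 111 of them were among the 227 and the genes divided into 109 with the higher and 114 with the lower step in Sp1-/- cells, in place of 144 and 83; the cause was not tested. The replicate block gave 266 calls, and 316 when fitted within each genotype. An unmoderated t-test, which took the spread of each gene from the same 4 groups and shared none between genes, called 101 genes, and 0 after Benjamini-Hochberg adjustment. An adjusted p of 0.05 or of 0.01 left 0, and 2-fold with no p gave 632. Leaving out 1 array gave 165 to 810, the lone array then being assumed to vary like the other groups, and 34.4 to 75.6% of the calls had the higher step. Genes in which only Sp1-/- cells moved numbered 125, 57 by the unmoderated t-test and 87 to 591 when 1 array was left out.

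The 51 called genes named by the stated rule, which leaves out those chosen after their values were seen, kept their sign under all 18 alternatives that give a value per gene, and 16 of them kept the call in all 18. The replicate blocks, the unmoderated t-test and the fit of all 16 arrays change the spread and hardly the interaction. Fits that left out 1 array could hardly turn its sign either, so the kept sign is no further evidence. In 25 of the 51 genes the call was lost with the processed signal and in 25 by the unmoderated t-test. Many also lost it without Sp1-/- HE2 replicate 2. The interactions of the sort antigens, none of them called, turned sign when 1 array was left out. They ran from -0.51 to 0.26 for Itga2b, from -0.05 to 0.68 for Kit and from -0.11 to 0.83 for Tek, and Itga2b gave 0.03 with the processed signal. With 2 arrays in a group and 22 of 144 genes near background in an HE1 group, small interactions of dim genes could not be measured.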

Other observations

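Some genes outside the lists were called with the higher step in Sp1-/- cells, and those given here were chosen after their values were seen and stand for no group. Btk, a kinase of B cell receptor signaling, had an interaction of 1.84, Ptpn6, the phosphatase SHP-1, 1.87, and Syk, a kinase downstream of Fc receptors, 1.38. Ncf1, a further subunit of the phagocyte NADPH oxidase, had 1.68. These 4 passed an adjusted p of 0.05 in the limma model of 16 arrays. Pik3cd and Pik3cg, the catalytic subunits of phosphoinositide 3-kinase found in leukocytes, had 1.38 and 1.20, and Ccl4, a chemokine related to Ccl3, had 1.73. Pik3cg lost the call without Sp1+/+ HE1 replicate 1, and the other 6 kept it in each fit that left out 1 array.

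Among the genes called with the lower step outside the lists, Fbn2, a fibrillin, had -1.09, Cd248, an antigen of pericytes and stroma, -1.18, and Plod2, an enzyme that hydroxylates collagen, -1.23. Meis2, a homeobox transcription factor, fell in both genotypes and had -1.36. They were likewise chosen after their values were seen. Fbn2 lost the call in 5 of the 8 fits that left out 1 array, and the other 3 kept it in all 8.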
